A study of Homo sapiens with 8 samples.

Results

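The direct comparison of cells given a NANOG vector with cells given an OCT4 vector rested on 4 of the 8 arrays of a study of H1 human embryonic stem cells, the 2 arrays titled OE-NANOG and the 2 titled OE-OCT4. Members were chosen by array title alone, and no control array entered the contrast. H1 is an established human embryonic stem cell line. Every group received a lentivirus together with polybrene, and the controls therefore carried a virus too. The 4 groups, each on 2 arrays, are EF1a-control, OE-NANOG, OE-SOX2 and OE-OCT4, where OE stands for overexpression. All cells were kept feeder-free in mTeSR medium on plates coated with Matrigel. The sources used here do not give the time from transduction to harvest, the promoter of the factor vectors or the number of independent transductions. The labels number the arrays within a group 1 and 2 without saying whether each was a culture of its own. The p-values therefore speak of the spread among these samples only, and that spread may be technical.

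OCT4 (the product of POU5F1) is a POU-domain factor and NANOG a homeodomain factor, and together with SOX2 they occupy many of the same enhancers in human embryonic stem cells. In these cells NANOG acts alongside activin and nodal signalling, and it is known for holding back neuroectoderm differentiation. OCT4 is needed to keep the cells undifferentiated, and both its loss and its excess are known to drive them out of that state. A direct contrast of the 2 vectors addresses which genes differ between cells given one core factor and cells given the other.

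The cells carried the markers of their label. All 9 human embryonic stem cell markers on the array, POU5F1, NANOG, SOX2, LIN28A, DNMT3B, SALL4, PODXL, L1TD1 and EPCAM, exceeded an intensity of 123.7 on all 4 arrays. This filter intensity is the 60th percentile of the whole table and marks the limit below which a probe is called dim here. Their summed intensity was 27803 and 27354 on the NANOG-labelled arrays and 27167 and 27385 on the OCT4-labelled arrays. Of 6 blood and endothelial markers, 4 endoderm markers and 5 trophoblast and amnion markers, only ISL1 exceeded it on all 4. Of 4 neural markers only TUBB3 did, while PAX6 and SOX1 stayed under it on all 8 arrays. Among 7 fibroblast markers COL1A1, COL1A2 and THY1 exceeded it on all 4 arrays and LUM on none. The summed fibroblast marker intensity was 4013 and 3855 on the NANOG-labelled arrays, and 3657 and 3936 on the OCT4-labelled arrays. Of these sums THY1 alone gave 2692 and 2529, and 2252 and 1982, so they mostly follow THY1. COL1A1 and COL1A2 leaned the other way from THY1, with log2 differences (NANOG label minus OCT4 label) of -0.33 and -0.55 against 0.31. In bulk samples such as these, fewer cells of a type and less RNA per cell cannot be told apart.

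The probe readings of the factors themselves did not follow the labels. POU5F1 (probe ILMN_1705546) had deposited intensities of 3945 and 3794 on the NANOG-labelled arrays 1 and 2, and of 1793 and 1501 on the OCT4-labelled arrays, with 3447 and 2833 on the control arrays. Values are given in the order of replicates 1 and 2 throughout, and differences are means of log2 background-corrected intensity, NANOG label minus OCT4 label. The arrays labelled OCT4 were thus the lowest of these 6, and did not overlap with the NANOG-labelled ones. POU5F1 was higher with the NANOG label by 1.26 log2 units (SE 0.16, limma adjusted p = 0.00327). Its difference from control was -0.95 with the OCT4 label (adjusted p = 0.0793) and 0.31 with the NANOG label (adjusted p = 0.392). Beside every value against control it holds that the replicate deviations of the OCT4-labelled and control arrays correlated at 0.38 across genes. The second POU5F1 probe, ILMN_1665632, read 120 to 146 on these arrays and differed by 0.03.

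NANOG (ILMN_1659013) read 347 and 387 with the NANOG label, 366 and 273 with the OCT4 label and 491 and 358 in control cells. The groups overlapped, and the difference of 0.25 (95% interval -0.23 to 0.72) did not pass the test (adjusted p = 0.582). Its second probe, ILMN_3307710, also gave 0.25. SOX2 (ILMN_1770635) read 1027 and 1083 against 946 and 1257, a difference of -0.05 (95% interval -0.59 to 0.50, adjusted p = 0.940), and -0.49 by its second probe, ILMN_2177156, which did not pass either. The sources used here do not say where on each transcript these probes lie, and whether they read the vectors' own transcripts was not tested. Groups are therefore called by their labels below.

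Of 12436 genes tested, 890 passed an adjusted p of 0.05, which is 7.16% of those tested. They comprised 537 genes higher with the NANOG label (4.32%) and 353 higher with the OCT4 label (2.84%). The excess towards NANOG grew with size: 223 against 92 genes differed at least 2-fold, and 41 against 9 at least 4-fold. Over all genes tested the median difference was -0.02 on the log2 scale, and 45.9% of them lay above zero. A further 28 genes differed by 2-fold or more without passing. All 890 passing genes had no overlap between the 4 arrays, but so did 7610 genes in all. For comparison, the same model called 3.63% of genes for the NANOG label against control and 0.281% for the OCT4 label against control. Those 2 comparisons share their control arrays.

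**Figure D1:**
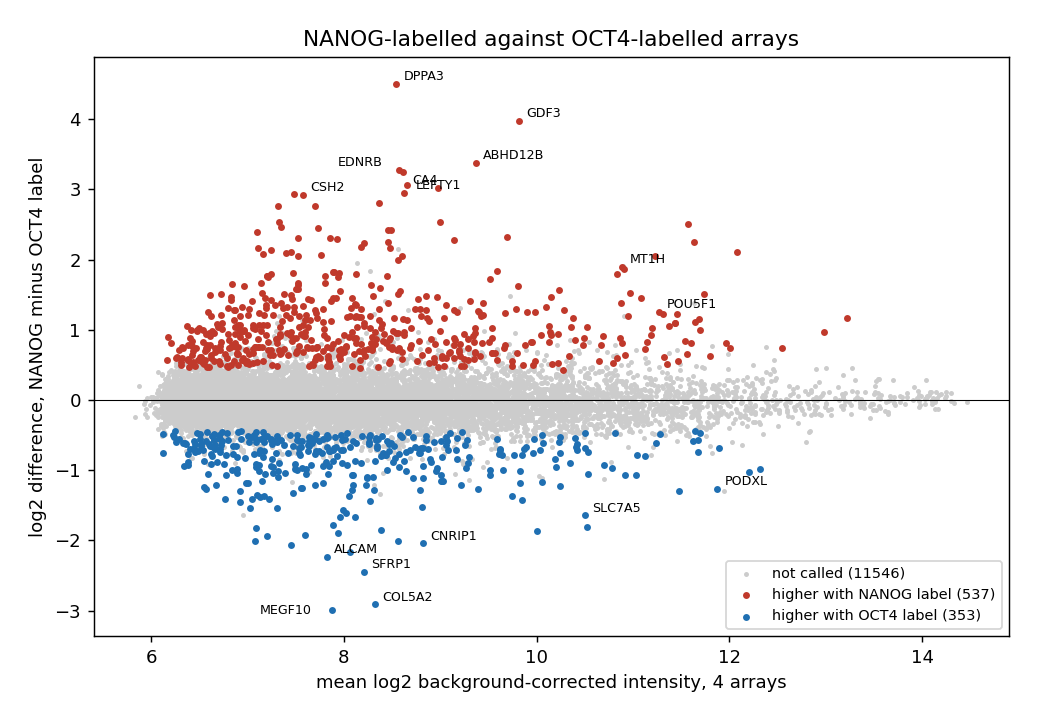
Difference between NANOG-labelled and OCT4-labelled arrays (vertical, log2 units) against the mean log2 background-corrected intensity of the 4 arrays (horizontal), 1 point per gene. The 537 genes higher with the NANOG label reach 4.51 (DPPA3), and the 353 higher with the OCT4 label reach -2.99 (MEGF10).

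The NANOG-labelled arrays were the closer pair. Their values differed by a median of 0.09 log2 units per gene and by more than 1 unit for 0 genes, against 0.12 and 42 genes on the OCT4-labelled pair. The number of calls depended on each array: it was 128 without NANOG replicate 1, 186 without NANOG replicate 2, 465 without OCT4 replicate 1 and 247 without OCT4 replicate 2. It was 1889 without the SOX2 arrays, which entered the fit only through the shared spread and differed from each other by more than 1 unit for 303 genes. With those arrays left out, 51.5% of the calls were higher with the NANOG label instead of 60.3%.

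The largest difference was that of DPPA3, a maternal-effect and germ cell gene also used as a marker of naive pluripotency. It read 2018 and 1642 on the NANOG-labelled arrays, 122 and 118 on the OCT4-labelled arrays, and 163 and 130 on the control arrays. Both NANOG-labelled arrays stood far above all others, and the OCT4-labelled ones lay below the filter intensity. The fold was therefore at least 21.8 (log2 difference 4.51, SE 0.17, adjusted p = 3.15e-05), and the 2 other DPPA3 probes gave 3.79 and 1.82.

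GDF3, a ligand related to nodal, read 3986 and 3316 with the NANOG label and 351 and 211 with the OCT4 label. The control arrays read 699 and 275, between the 2 groups, with 1 of them inside the OCT4-labelled range. The NANOG-labelled cells had 15.8-fold more (log2 difference 3.98, SE 0.45, adjusted p = 0.00181). GDF3 and DPPA3 are neighbours of NANOG on chromosome 12 in RefSeq, lying 4 and 3 protein-coding genes away in its table. The measured genes on NANOG's other side did not pass: SLC2A14 differed by -0.33, SLC2A3 by -0.45 (adjusted p = 0.0587) and FOXJ2 by 0.07.

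The remaining 13 of the 15 largest differences towards NANOG included genes of secreted, membrane and placental proteins. ABHD12B, which encodes an abhydrolase-domain protein, read 2322 and 2023 against 473 and 140. The control arrays, at 518 and 140, showed nearly the same spread as the OCT4-labelled pair. Its difference was 3.37 (SE 0.77, adjusted p = 0.0367). Of its 2 other probes, ILMN_2367487 gave 3.83 (adjusted p over probes 0.0514) and ILMN_1698311 gave 0.12. ABHD12B lost its call under 3 of 15 other settings. EDNRB, the endothelin B receptor, read 1209 and 1246 against 228 and 122, a difference of 3.28 (SE 0.69, adjusted p = 0.0264). CA4, a membrane-anchored carbonic anhydrase, read 1331 and 1176 against 198 and 146, with 400 and 215 in control cells. Its difference was 3.25 (SE 0.31, adjusted p = 0.000846).

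LEFTY1 and LEFTY2, secreted inhibitors of nodal, behaved alike. LEFTY1 read 1117 and 1299 against 282 and 123, and LEFTY2 1120 and 1158 against 285 and 126. In both genes OCT4 replicate 1 read more than replicate 2. The differences were 3.06 (SE 0.44, adjusted p = 0.00535) and 2.95 (SE 0.53, adjusted p = 0.0133). These neighbouring genes are near-identical in sequence, so their probes may share signal. QPCT, the glutaminyl cyclase, read 1620 and 1350 against 278 and 175 (3.02). SPOCK2, a secreted proteoglycan, read 1103 and 759 against 192 and 145 (2.81), and the coagulation inhibitor TFPI 1295 and 1248 against 195 and 338 (2.53). TAFA2, a secreted chemokine-like peptide, read 710 and 481 against 125 and 119 (2.76).

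A further 4 of the 15 lay under the filter intensity on both OCT4-labelled arrays, so only a bound is given. CSH2, a placental lactogen gene, read 554 and 585 against 121 and 104, at least 6.47-fold higher. CST1, a secreted cystatin, was at least 6.10-fold higher, the olfactory receptor gene OR52A1 at least 5.10-fold and the dynein assembly factor gene DNAAF11 at least 4.75-fold. On the control arrays these 4 read 104 to 136. The CSH2 probe may bind its relatives: CSH2, GH2, CSH1, CSHL1 and GH1, which are near-identical, all passed in the same direction. With any 1 array left out, 10 of the 15 genes kept their call. ABHD12B, EDNRB, LEFTY1, LEFTY2 and TFPI lost it in at least 1 case, with adjusted p up to 0.252. Leaving out NANOG replicate 1 or 2 cost 5 calls each, OCT4 replicate 1 cost 1 and OCT4 replicate 2 cost 3.

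**Figure D2:**
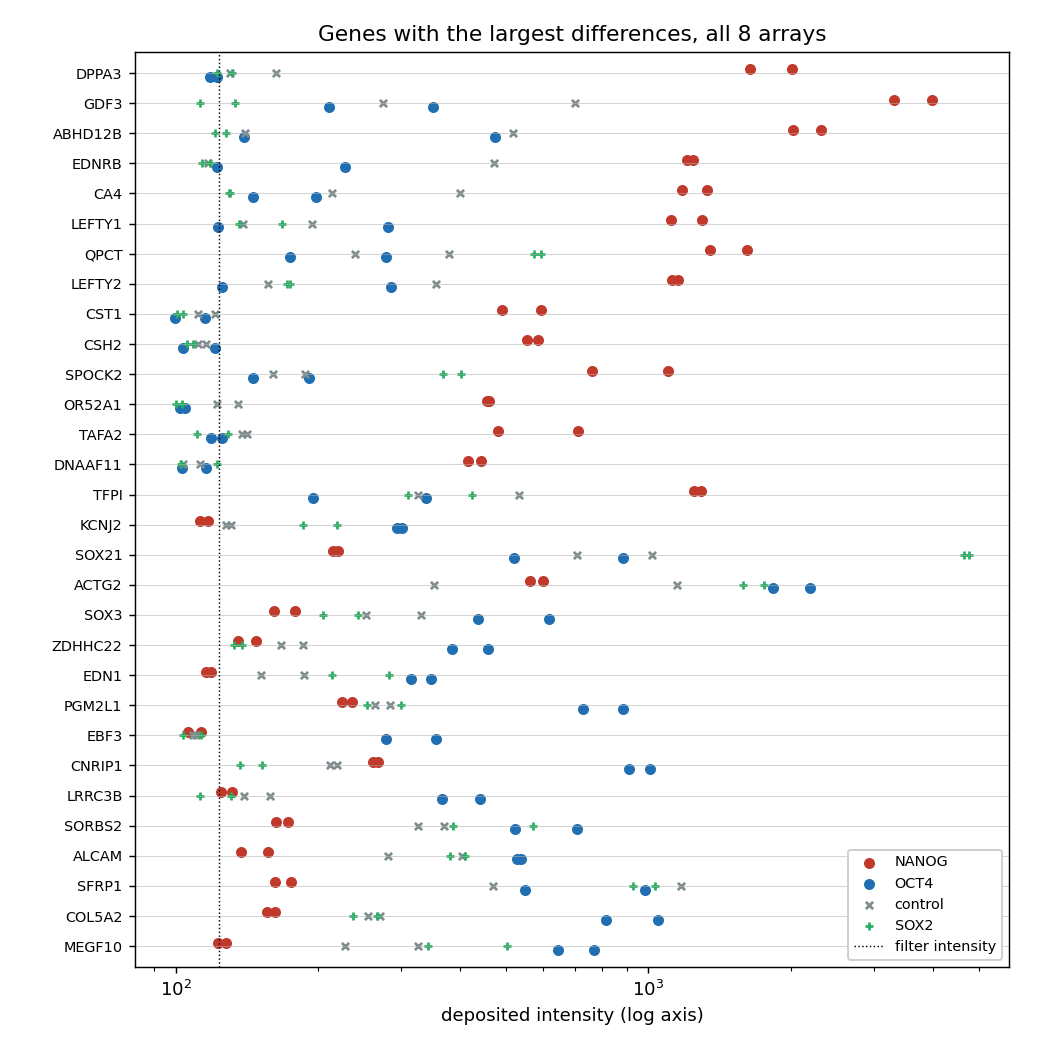
Deposited intensity (horizontal, log axis) of the 15 genes with the largest differences in each direction, with 1 symbol per array and the filter intensity of 123.7 as a dotted line. A lack of overlap between NANOG-labelled and OCT4-labelled arrays was a condition for choosing these 30 genes. SOX21 is highest on the SOX2-labelled arrays, at 4775 and 4662.

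Among genes higher with the OCT4 label, MEGF10, a cell-surface engulfment receptor, led. It read 123 and 128 on the NANOG-labelled arrays, 645 and 768 on the OCT4-labelled arrays and 228 and 326 on the control arrays. The control arrays lay between the 2 groups. Its difference was -2.99 (SE 0.24, adjusted p = 0.000365). Against control it was -1.47 with the NANOG label (adjusted p = 0.0176) and 1.52 with the OCT4 label (adjusted p = 0.0604).

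COL5A2, a chain of type V collagen, read 156 and 162 against 1047 and 814, with 255 and 270 in control cells, a difference of -2.91 (SE 0.15, adjusted p = 6.56e-05). Against control COL5A2 was lower with the NANOG label (-0.92, adjusted p = 0.0159) and higher with the OCT4 label (2.00, adjusted p = 0.00305). CNRIP1, which binds the cannabinoid receptor, had another pattern: 261 and 268 with the NANOG label, 1008 and 911 with the OCT4 label, 219 and 212 in control cells. The NANOG-labelled arrays lay near control and the OCT4-labelled ones stood apart. CNRIP1 differed by -2.04 between the vectors (SE 0.12, adjusted p = 0.0001) and by 2.40 between the OCT4 label and control. Its 3 other probes gave -1.48, -1.42 and -0.52, the last of which did not pass.

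SFRP1, a secreted WNT antagonist, had yet another. It read 175 and 162 with the NANOG label, 548 and 984 with the OCT4 label and 468 and 1173 in control cells. Here the OCT4-labelled arrays lay within the control range, and the difference was -2.45 (SE 0.42, adjusted p = 0.0115). The SRY-box genes SOX3 and SOX21, both expressed in neural progenitors, also read lowest with the NANOG label. SOX3 read 161 and 179 against 437 and 615 (-1.90, adjusted p = 0.00193). SOX21 read 215 and 221 against 521 and 886 (-1.85, adjusted p = 0.00495), with 706 and 1016 in control cells.

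The rest included adhesion, cytoskeletal and membrane protein genes. The adhesion molecule gene ALCAM read 156 and 138 against 538 and 528 (-2.23), and SORBS2, an actin-associated adaptor, 163 and 173 against 706 and 524 (-2.17). LRRC3B, a leucine-rich repeat membrane protein, differed by -2.07, PGM2L1, a sugar-phosphate mutase relative, by -2.01 and ZDHHC22, a palmitoyltransferase, by -1.93. The NANOG-labelled and OCT4-labelled arrays separated for each of these, as the choice of genes required. Smooth-muscle gamma-actin, ACTG2, read 562 and 597 against 2203 and 1832, but 352 and 1153 in control cells, and passed narrowly (-1.87, SE 0.47, adjusted p = 0.0499). ACTG2 lost its call under 9 of 16 other settings, among them no background correction, cyclic loess and the replicate block. The remaining 3 were under the filter intensity on both NANOG-labelled arrays: the transcription factor EBF3 was at least 3.34-fold higher with the OCT4 label, endothelin 1 (EDN1) at least 3.53-fold and the potassium channel KCNJ2 at least 3.13-fold. With any 1 array left out, 12 of these 15 kept their call. SFRP1, ACTG2 and SOX21 lost it, with adjusted p up to 0.299. Leaving out either NANOG replicate cost all 3, OCT4 replicate 1 cost 1 and OCT4 replicate 2 cost 2.

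Naive pluripotency genes, which mark the state of the preimplantation epiblast, leaned to the NANOG label. Of 14 measured, 6 were higher with it and 0 with the OCT4 label, and their median difference was 0.51 against -0.02 for all genes. Called genes were 42.9% of this list. Beside every list count here and below stand 4.32% of all genes higher with the NANOG label and 2.84% with the OCT4 label. The lists were chosen with earlier results of these data known, so their counts describe the lists and do not test them. DPPA5 read 360 and 352 against 110 and 94 (at least 3.85-fold). DPPA2 read 562 and 574 against 279 and 193 (1.48, adjusted p = 0.0494), and the inflammasome-family gene NLRP7 read 386 and 309 against 171 and 155 (1.33). Other NLRP7 probes gave 1.34 and 0.69, the last of which did not pass. DPPA2 on control replicate 1, at 476, stood nearer the NANOG-labelled arrays than control replicate 2 did, at 220. DPPA2 lost its call under 6 of 16 other settings, and with 1 contrast array left out 3 of the list were called.

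Of 28 genes shared by pluripotent states or typical of the primed one, 5 were higher with the NANOG label and 3 with the OCT4 label (median 0.14), and 1 to 3 in each direction with 1 contrast array left out. HESX1, a homeobox gene of embryonic stem cells and anterior neural tissue, read 519 and 461 against 174 and 163 (1.83, adjusted p = 0.000306), and SCGB3A2, a secretoglobin, 1992 and 1986 against 1089 and 657 (1.28). The other way, the sialomucin PODXL read 2456 and 2471 against 6209 and 5548 (-1.27, adjusted p = 0.0016). PODXL carries epitopes used to recognise human pluripotent cells, and it was lower with the NANOG label while POU5F1 was higher.

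The germ cell list held 4 higher and 0 lower of 13 measured, with all 13 above zero and a median of 0.43, and 1 to 3 higher with 1 contrast array left out. Besides DPPA3 these were DND1, an RNA-binding protein (198 and 185 against 125 and 102, 1.09), TFAP2C, a transcription factor of germ cell specification (746 and 775 against 473 and 346, 0.99), and the receptor KIT (357 and 355 against 210 and 235, 0.80). The second KIT probe gave 0.43 and did not pass. Of the germ cell list 30.8% was called, against 7.16% of all genes. TET1, which oxidises 5-methylcytosine, was the only one of 12 DNA methylation and demethylation genes to pass, at 828 and 831 against 427 and 364 (1.16, SE 0.18, adjusted p = 0.00716). Its other probes gave 1.18 (ILMN_1741056) and 0.93 (ILMN_1664909), the last of which did not pass. This 1 gene was 8.33% of that list, near the 7.16% called over all genes. Of 11 telomere genes the shelterin component TERF1 was higher with the NANOG label (0.64, adjusted p = 0.0492), and the telomerase component DKC1 with the OCT4 label (-0.47, adjusted p = 0.0498). TERF1 lost its call under 7 and DKC1 under 8 of 16 other settings, the replicate block among them. The second TERF1 probe gave 0.09 and did not pass.

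Of the 14 genes named in these 5 pluripotency, germ cell, methylation and telomere lists, DPPA3, DPPA5, NLRP7, HESX1 and PODXL kept their call with any 1 array left out. The others lost it, with adjusted p up to 0.318. Leaving out NANOG replicate 1 cost 9 calls, NANOG replicate 2 cost 8, OCT4 replicate 1 cost 4, OCT4 replicate 2 cost 7 and a control array cost 2, TERF1 and DKC1.

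In nodal, activin and TGF-beta signalling 4 of 17 genes measured passed. The ligand GDF3 and the inhibitors LEFTY1 and LEFTY2 were higher with the NANOG label, and the type I receptor ACVR1B was higher with the OCT4 label (308 and 303 against 454 and 537, -0.78, adjusted p = 0.0197). The median of the list was -0.01, and with 1 contrast array left out 1 to 4 were called higher with the NANOG label. NODAL itself, named after its values were seen, read 843 and 829 with the NANOG label but 432 and 125 with the OCT4 label, and 347 and 163 in control cells. Its 2 NANOG-labelled arrays were the highest of all. The difference of 2.15 did not pass (SE 0.64, adjusted p = 0.0907). Across this list OCT4 replicate 1 exceeded OCT4 replicate 2 by a median of 0.49 log2 units, against -0.01 over all genes, and the part of this gap in the result was not tested.

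FGF and ERK feedback genes held 5 higher with the NANOG label and 1 with the OCT4 label of 19 measured, with a median of 0.44. That is 31.6% of a list chosen with earlier results of these data known, against 7.16% of all genes, and is no test of the list. With 1 contrast array left out, 0 or 1 of them were called higher with the NANOG label and 0 to 2 with the OCT4 label, and without the SOX2 arrays 9 and 3 were. The ERK phosphatase gene DUSP5 read 1502 and 1499 against 540 and 378 (1.83, adjusted p = 0.00719), the receptor gene FGFR4 506 and 474 against 222 and 191 (1.45) and the inhibitor SPRED2 492 and 407 against 232 and 246 (1.04). DUSP6, another ERK phosphatase gene, went the other way, at 366 and 435 against 795 and 783 (-1.07, adjusted p = 0.00667), and its second probe gave -1.05. The 2 phosphatase genes thus differed in opposite directions, each with no overlap between the groups, as held for every passing gene. The second FGFR4 probe gave 0.80 and did not pass.

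Other pathways held up to 4 passing genes each. Of 16 WNT genes the ligand WNT3 (0.84) and the antagonist FRZB (0.46, adjusted p = 0.0499) were higher with the NANOG label, and SFRP1 and the receptor FZD2 (-0.48) with the OCT4 label. Of 13 BMP and ID genes, ID1 read 878 and 1100 against 587 and 679 (0.68, adjusted p = 0.0293) and ID3 765 and 856 against 1401 and 1280 (-0.76, adjusted p = 0.00769). Both encode inhibitors of bHLH factors, and they differed in opposite directions. Of 13 retinoic acid genes the retinaldehyde reductase DHRS3 was higher with the NANOG label (0.50) and CYP26A1, which degrades retinoic acid, with the OCT4 label (-0.95, adjusted p = 0.00913). None of 18 NOTCH genes passed limma's adjusted p, 5 had an unadjusted p under 0.05, and their median was 0.03. Under 16 other settings FRZB lost its call in 7, DHRS3 in 6, FZD2 in 5 and ID1 in 1, and WNT3 in 2 of 15. The second probes of ID1 (0.29) and CYP26A1 (-0.36) did not pass.

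Of the 16 genes named in these 6 signalling lists only GDF3 kept its call with any 1 array left out. Leaving out NANOG replicate 1 cost 15 calls, NANOG replicate 2 cost 14, OCT4 replicate 1 cost 7, OCT4 replicate 2 cost 13 and a control array cost 3, with adjusted p up to 0.351.

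**Figure D3:**
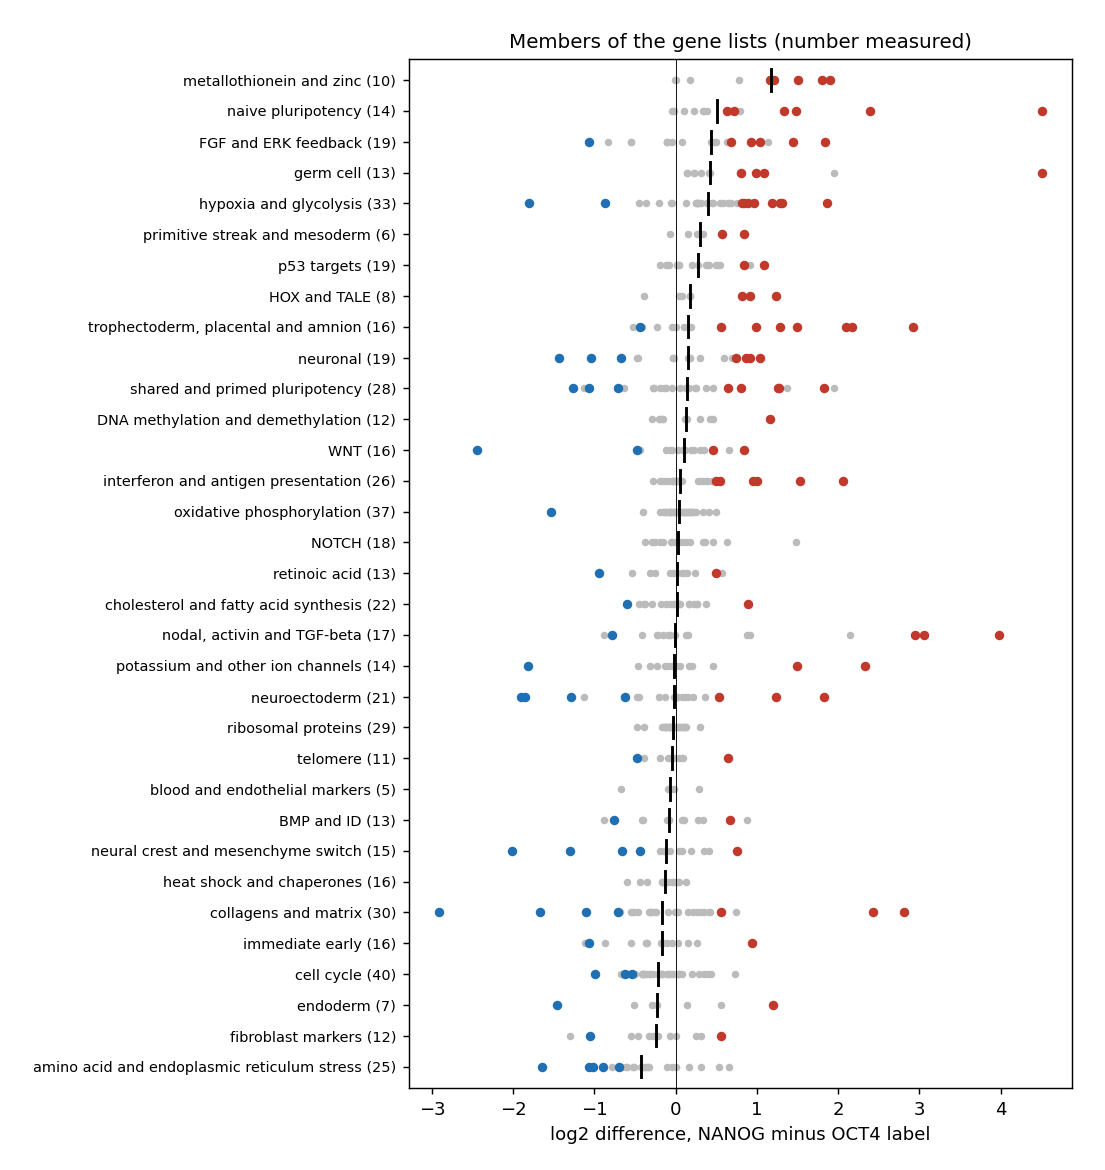
Difference between NANOG-labelled and OCT4-labelled arrays (horizontal, log2 units) for each measured member of 33 gene lists, 1 row per list, ordered by the median (black bar). Red and blue points passed the test, higher with the NANOG or the OCT4 label, and grey points did not; medians run from 1.17 (metallothionein and zinc) to -0.43 (amino acid and endoplasmic reticulum stress).

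Lineage genes differed in both directions. Of 21 neuroectoderm genes, 3 were higher with the NANOG label and 4 with the OCT4 label, with a median of -0.02, equal to that of all genes. With 1 contrast array left out these counts were 1 to 2 and 1 to 3. SOX11, a SRY-box gene of neural progenitors, read 318 and 334 against 643 and 841 (-1.29, adjusted p = 0.0128), in the same direction as SOX3 and SOX21. HESX1, also on this list, went the opposite way. Of 19 neuronal genes, 4 were higher with the NANOG label, including the neurofilament genes NEFM (1.05) and NEFL (0.91). The other 3 that passed were higher with the OCT4 label, including the RNA-binding protein gene ELAVL2 (232 and 227 against 499 and 607, -1.44) and the tachykinin gene TAC1 (-1.04). Other TAC1 probes gave -0.92 and -0.55, the last of which did not pass.

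Placental and amnion genes held 7 higher with the NANOG label and 1 higher with the OCT4 label of 16 measured (50% called, against 7.16% of all genes). Their median was 0.15, and 3 to 6 were called higher with the NANOG label with 1 contrast array left out. Besides CSH2 they included CSH1 (396 and 388 against 132 and 117, 2.09), the transporter ABCG2 (361 and 310 against 109 and 105, at least 3.58-fold) and GABRP, a GABA receptor subunit (370 and 305 against 178 and 122, 1.49). CSH2 and ABCG2 exceeded the filter intensity on the NANOG-labelled arrays only. They thus counted as measured through the group where they were high, and the share called is no test of the list. Of the 5 trophoblast and amnion markers, CGA, GATA3, KRT7 and VTCN1 were under the filter intensity on all 4 arrays. ISL1, the other one, was above it, at 165 and 154 against 160 and 157.

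Neural crest and mesenchymal switch genes held 1 higher with the NANOG label and 4 higher with the OCT4 label of 15 measured. TWIST1, a bHLH factor of the mesenchymal switch, read 125 and 114 against 252 and 215 (-1.30, adjusted p = 0.00169), and SOX9 115 on both NANOG-labelled arrays against 157 and 158 (at least 1.42-fold). The fibronectin receptor subunit ITGA5 went the other way (0.75, adjusted p = 0.0349). All 3 HOX and TALE genes that passed, of 8 measured, were higher with the NANOG label: MEIS3 (274 and 237 against 137 and 129, 1.23), PBX3 (0.91, adjusted p = 0.0478) and HOXD1 (at least 1.20-fold). PBX3 lost its call under 5 of 16 other settings.

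Germ layer genes were mostly dim. Of 24 primitive streak and mesoderm genes listed only 6 were measured, and WNT3 and EOMES, a T-box factor (139 and 148 against 117 and 105, at least 1.25-fold), were higher with the NANOG label. EOMES lost its call under 3 of 14 other settings. Of 7 endoderm genes measured, APOB, an apolipoprotein, was higher with the NANOG label (201 and 181 against 110 and 105, at least 1.82-fold) and AFP, alpha-fetoprotein, with the OCT4 label (112 and 119 against 238 and 248, at least 2.46-fold). SOX17, FOXA2 and GATA6, which define endoderm, were under the filter intensity on all 8 arrays. Of 23 genes named in these 7 lineage lists, 9 kept their call with any 1 array left out: CSH2, EBF3, SOX3, HESX1, APOB, ABCG2, CSH1, TWIST1 and MEIS3. Among these 23, omitting NANOG replicate 1 cost 14 calls, NANOG replicate 2 cost 13, OCT4 replicate 1 cost 5, OCT4 replicate 2 cost 12 and a control array cost 3, with adjusted p up to 0.300.

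Metallothioneins, small proteins that bind zinc and copper, had the highest median of the 33 lists, 1.17. Of 10 genes measured in the metallothionein and zinc list, 6 were higher with the NANOG label and 0 with the OCT4 label, and 2 to 6 with 1 contrast array left out. MT1H read 3440 and 3986 against 784 and 1343, with 1545 and 1603 in control cells (1.90, SE 0.23, adjusted p = 0.00257). MT1F read 3300 and 3590 against 1174 and 885 (1.80), MT1G 5653 and 5941 against 1684 and 2548 (adjusted p = 0.00284) and MT1M 246 and 278 against 145 and 130 (1.21). For MT1H, MT1F and MT1G the SOX2-labelled arrays read lowest of all. MT2A and MT1X, named because they are the other 2 that passed, differed by 1.17 and 1.16. The 6 passing genes were 60% of the list, against 7.16% of all genes. These 6 genes form a cluster on chromosome 16 and are near-identical in sequence, so the separate values are uncertain. MT1H and MT1M kept their call with any 1 array left out. Omitting NANOG replicate 1 cost the other 2 named their call and NANOG replicate 2 cost 1, with adjusted p up to 0.0555.

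Metallothionein genes are known targets of the zinc sensor MTF1, which binds metal response elements. The promoters of MT1H (chr16:56669564-56669813, + strand) and MT2A (chr16:56608334-56608583, + strand) are shown because both genes were higher with the NANOG label. Both are the 250 bases before the gene's start in RefSeq, build GRCh38.p14, and capitals mark TGCACNC or TGCGCNC on either strand.
MT1H: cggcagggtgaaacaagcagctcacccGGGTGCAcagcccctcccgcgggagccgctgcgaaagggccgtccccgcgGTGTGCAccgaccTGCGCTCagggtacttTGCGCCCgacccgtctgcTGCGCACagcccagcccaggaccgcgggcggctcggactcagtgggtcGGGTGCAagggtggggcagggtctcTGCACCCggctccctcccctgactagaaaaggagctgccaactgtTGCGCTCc
MT2A: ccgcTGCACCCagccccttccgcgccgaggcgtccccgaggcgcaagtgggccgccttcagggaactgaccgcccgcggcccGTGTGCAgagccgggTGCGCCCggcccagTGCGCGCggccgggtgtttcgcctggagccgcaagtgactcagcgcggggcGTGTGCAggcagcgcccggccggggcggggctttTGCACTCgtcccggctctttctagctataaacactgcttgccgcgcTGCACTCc

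MT1H held 8 matches, MT2A 7 and MT1X 4, and these were the only 3 of the 6 genes with a promoter in the table used. At least 3 matches occurred in 1.53% of 27305 RefSeq promoters of the same length and in 2.21% of those of the 9936 tested genes. Of the 6 measured metallothionein and zinc genes with a promoter, the same 3 had that many. Matches to a motif are a description of these letters and do not show binding.

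Hypoxia and glycolysis genes, many of them targets of the HIF factors, had a median of 0.39. Of 33 measured, 30.3% were called against 7.16% of all genes, 8 higher with the NANOG label and 2 with the OCT4 label. With 1 contrast array left out these counts were 0 to 3 and 0 to 1, and without the SOX2 arrays 13 and 3. BNIP3, a mitophagy receptor, read 3924 and 3475 against 1129 and 967 (1.86, SE 0.25, adjusted p = 0.00417). The control arrays read 2525 and 1377, between the groups. ANKRD37, an ankyrin-repeat protein induced by HIF, read 290 and 255 against 136 and 134 (1.31), and PFKFB4, a regulator of glycolysis, 901 and 652 against 369 and 312 (1.29). LDHA and PGK1, glycolytic enzymes named after their values were seen, differed by 0.97 and 0.82.

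The opposite direction held for ADM, the vasodilator adrenomedullin, itself a HIF target, and for EGLN3 (-0.87, limma adjusted p = 0.00507). In all, 7 of the 33 genes lay below zero and 26 above. VEGFA (-0.20), SLC2A1 (-0.36) and SLC2A3 (-0.45) were among those below that did not pass. These 3 and EGLN3 were named after their values were seen. ADM read 804 and 851 against 2566 and 3029 (-1.81, adjusted p = 0.022), with 1508 and 3901 in control cells and 7770 and 7430 on the SOX2-labelled arrays. None of the 4 hypoxia genes named by rule, BNIP3, ADM, ANKRD37 and PFKFB4, kept its call with every array left out in turn. Omitting NANOG replicate 1 or OCT4 replicate 2 cost all 4 calls, and NANOG replicate 2 or OCT4 replicate 1 cost 3, with adjusted p up to 0.260.

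The BNIP3 promoter is printed because BNIP3 led this list. It is the 250 bases before the gene's start (GRCh38.p14, RefSeq, chr10:131981924-131982173, - strand), and capitals mark the hypoxia response element core ACGTG or GCGTG on either strand.
BNIP3: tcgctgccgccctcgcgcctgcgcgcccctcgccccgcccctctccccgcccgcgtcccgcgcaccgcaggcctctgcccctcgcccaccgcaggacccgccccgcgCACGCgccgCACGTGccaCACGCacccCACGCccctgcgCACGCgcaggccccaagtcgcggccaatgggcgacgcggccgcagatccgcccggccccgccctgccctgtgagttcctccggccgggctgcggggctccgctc

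It held 6 matches, 2 of them overlapping in 1 palindrome. The core is common: 42.6% of all promoters and 55.8% of those of tested genes held it. Of 29 measured hypoxia genes with a promoter 20 did, and of the 8 higher with the NANOG label 7 did. Motifs of the transduced factors were rare. The POU octamer ATGCAAAT was found in 1.71% of 409 promoters of genes higher with the NANOG label, in 1.17% of 256 promoters of genes higher with the OCT4 label and in 1.4% of the promoters of 9936 tested genes. The letters TAATGG, a core that NANOG is known to bind, were found in 3.91%, 1.56% and 3.73%. Neither DPPA3 nor GDF3 held either motif in this window.

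Amino acid and endoplasmic reticulum stress genes had the lowest median of the lists, -0.43, with 20 of 25 below zero. None was called higher with the NANOG label, and 5 were called higher with the OCT4 label, 20% of the list against 7.16% of all genes. With 1 contrast array left out 0 or 1 were, and without the SOX2 arrays 12. SLC7A5, the large neutral amino acid transporter, read 883 and 839 against 2279 and 2973 (-1.65, adjusted p = 0.00706), with 1602 and 2842 in control cells. The stress-induced transcription factor ATF3 read 210 and 190 against 341 and 405 (-1.06), the glutamine transporter SLC38A2 335 and 311 against 591 and 630 (-1.02) and the pseudokinase TRIB3 327 and 295 against 470 and 620 (-0.89). The SOX2-labelled arrays read far higher for TRIB3, at 2451 and 1673. TRIB3 lost its call under 6 and SLC38A2 under 3 of 16 other settings.

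Cell cycle genes lay below zero in 30 of 40 cases (median -0.21), but only 3 passed, all higher with the OCT4 label. They were the G1 cyclin gene CCND1 (580 and 649 against 1327 and 1046, -0.99, adjusted p = 0.00495), the mitotic kinase AURKA (-0.62) and the topoisomerase TOP2A (-0.54), which lost its call under 3 of 16 other settings. That is 7.50% of the list, against 7.16% of all genes. Without the SOX2 arrays 11 of the 40 were higher with the OCT4 label and 2 with the NANOG label, in a fit that called 1889 of 12436 genes. Of 19 p53 targets PHLDA3 (477 and 471 against 276 and 217, 1.09) and SESN1 (0.84) were higher with the NANOG label, 10.5% of the list. Among 16 immediate early genes FOS (310 and 294 against 162 and 195, 0.94) was higher with the NANOG label and ATF3 with the OCT4 label, 12.5% of the list.

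Of 22 cholesterol and fatty acid genes SC5D, a sterol desaturase, was higher with the NANOG label (0.89) and the fatty acid elongase ELOVL6 with the OCT4 label (-0.60, adjusted p = 0.0468). These 2 were 9.09% of the list, near the 7.16% called over all genes. ELOVL6 lost its call under 7 of 16 other settings, and its second probe gave -0.50 and did not pass. Of 37 genes on the oxidative phosphorylation list only UCP1, the uncoupling protein of brown fat, passed (142 and 128 against 237 and 414, -1.54, adjusted p = 0.0113). That left no passing subunit of a respiratory complex or ATP synthase, and 2.7% of the list called, against 7.16% of all genes. No gene of 29 ribosomal protein or 16 heat shock genes passed limma's adjusted p, while 3 and 2 had an unadjusted p under 0.05. Their medians were -0.04 and -0.12. Of the 21 genes named in these 10 stress, metabolism and growth lists, only MT1H and MT1M kept their call with any 1 array left out. Leaving out NANOG replicate 1 cost 19 calls, NANOG replicate 2 cost 16, OCT4 replicate 1 cost 11, OCT4 replicate 2 cost 15 and a control array cost 2, SLC38A2 and TRIB3, with adjusted p up to 0.300.

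**Figure D4:**
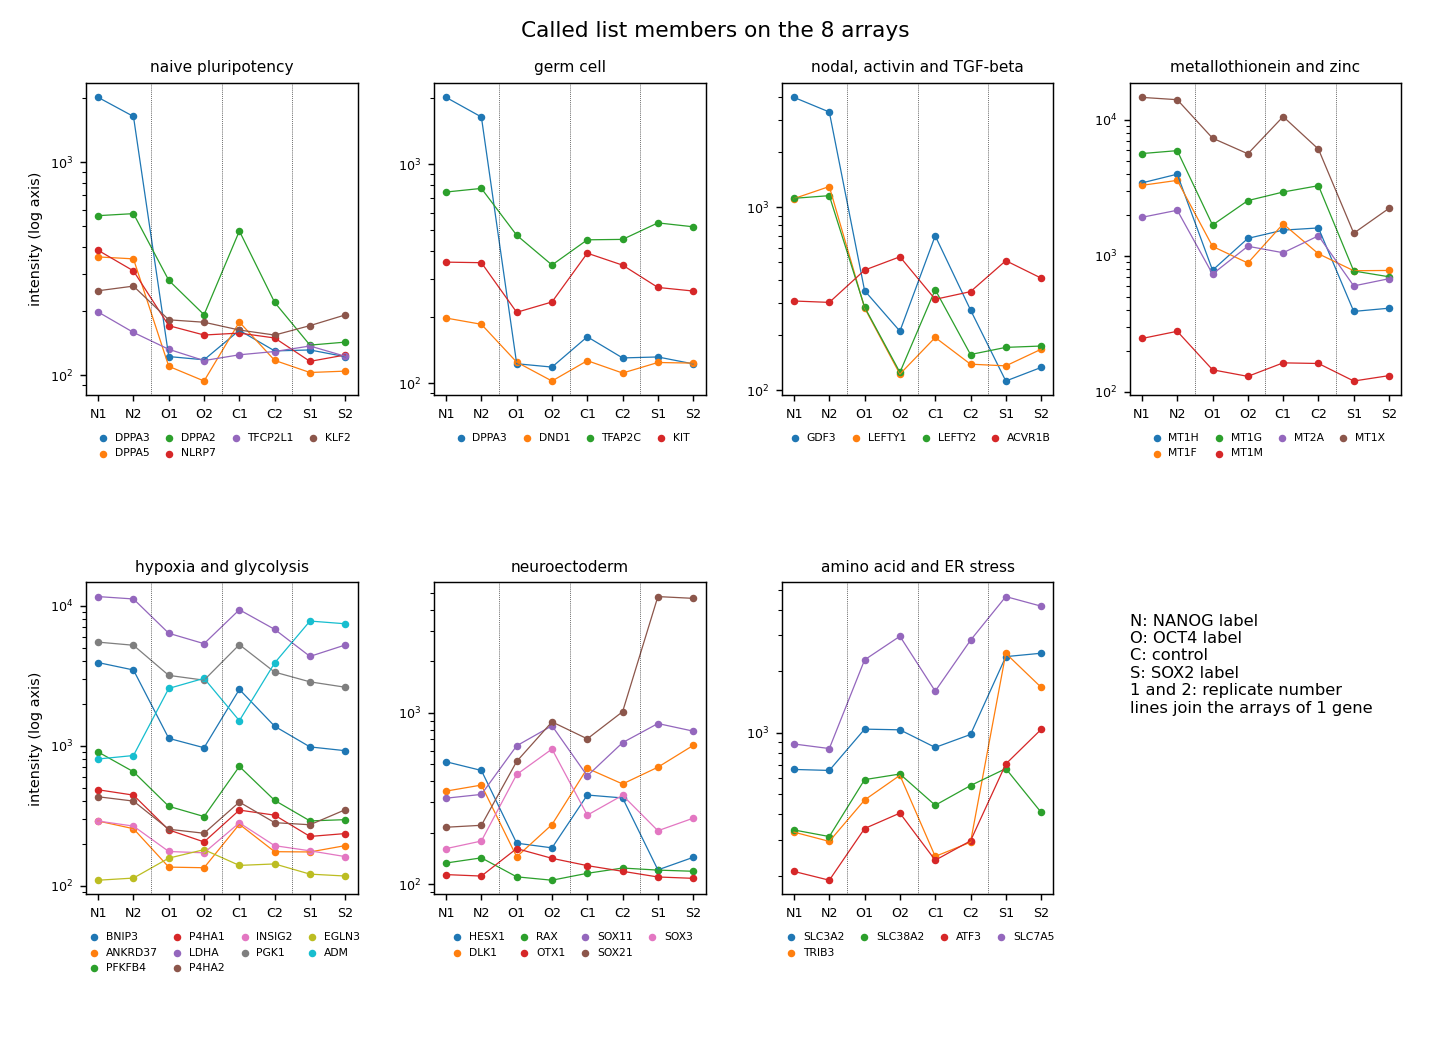
Deposited intensity (vertical, log axis) on each of the 8 arrays (horizontal) of the list members that passed the test, for 7 lists. Each line joins the arrays of 1 gene; GDF3, LEFTY2 and DPPA2 read higher on OCT4 replicate 1 and control replicate 1 than on the replicate 2 arrays of those groups.

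Interferon and antigen presentation genes had a median of 0.05. Of 26 measured, 23.1% were called against 7.16% of all genes, 6 higher with the NANOG label and 0 with the OCT4 label. They were 3 neighbouring genes of interferon-induced membrane proteins on chromosome 11, the class I genes HLA-B and HLA-C, and IFIT3. With 1 contrast array left out, 0 to 4 were called. IFITM1 read 5107 and 4789 against 1804 and 832 (2.06, SE 0.47, adjusted p = 0.036), with 3492 and 1331 in control cells. IFITM3 read 3395 and 3506 against 1518 and 988 (1.53), and IFITM2 4597 and 4866 against 2672 and 2125 (1.00). These 3 are near-identical, so their signals may be shared. HLA-B, a class I molecule, read 551 and 573 against 296 and 327 (0.95, adjusted p = 0.0047). Leaving out either NANOG replicate cost all 4 calls and OCT4 replicate 2 cost 3, with adjusted p up to 0.247.

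Matrix and channel genes included some of the largest differences. Of the collagen and matrix list 23.3% was called, against 7.16% of all genes. Of 30 collagen and matrix genes, 3 were higher with the NANOG label and 4 with the OCT4 label, or 1 to 2 and 1 to 3 with 1 contrast array left out. Tenascin C, TNC, read 882 and 865 against 264 and 150 (2.43, adjusted p = 0.0047), and FRAS1, a basement membrane protein, 188 and 209 against 497 and 584 (-1.67). Of 14 ion channel genes the 2-pore-domain family member KCNK12 read 1861 and 1934 against 377 and 450, with 961 and 1023 in control cells (2.33, SE 0.16, adjusted p = 0.000158). Its control arrays lay between the groups. KCNK12 was higher than control with the NANOG label (0.97, adjusted p = 0.0159) and lower with the OCT4 label (-1.36, adjusted p = 0.0169).

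Of 12 fibroblast markers measured, smooth-muscle actin ACTA2 was higher with the NANOG label (0.56, adjusted p = 0.044) and the crosslinking enzyme LOX with the OCT4 label (at least 1.70-fold), and none of 5 blood and endothelial genes passed limma's adjusted p (1 at an unadjusted p under 0.05). Of the genes named in the matrix, channel and fibroblast lists, SPOCK2, COL5A2, KCNJ2 and KCNK12 kept their call with any 1 array left out. ACTA2 and LOX lost it, with adjusted p up to 0.321, when either NANOG replicate or OCT4 replicate 2 was left out. ACTA2 also lost it without OCT4 replicate 1, without a control array and under 5 of 16 other settings.

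The array carries probes for microRNA genes, and 2 that passed are named after their values were seen. MIR302C belongs to the miR-302 cluster, which is abundant in human embryonic stem cells. Its mature products are shown because a seed decides which transcripts a microRNA pairs with. They come from RefSeq, build GRCh38.p14, and capitals mark the seed, bases 2 to 8. The 3p arm lies at chr4:112648366-112648388 and the 5p arm at chr4:112648402-112648423, both on the - strand.
hsa-miR-302c-3p: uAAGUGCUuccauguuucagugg
hsa-miR-302c-5p: uUUAACAUggggguaccugcug

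MIR302C read 142 and 148 with the NANOG label, 215 and 220 with the OCT4 label and 188 and 229 in control cells. The NANOG-labelled arrays were lower than both other groups, and the difference was -0.77 (SE 0.14, adjusted p = 0.0135). The array probe stands for RNA from the gene, and the level of the mature arms was not measured. MIR221 read 109 and 102 against 131 and 133, a difference of -0.50 with the NANOG-labelled arrays under the filter intensity, so that it was at least 1.10-fold higher with the OCT4 label (adjusted p = 0.0417).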

How the data were processed

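RNA of 8 H1 samples was measured on Illumina expression arrays, 2 per vector group. The deposited values are intensity on a linear scale for 47323 probes, from 86.3 to 22884. Every array had a median of 117.1 and the arrays' sorted values differed by at most 2.3, as after quantile normalization by the authors, with a tool the sources used here do not name. A further deposited table holds values before normalization. Its 16 columns (8 detection p-values, 8 signals) carry names that fit no label of a sample, and they were left unused.

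Intensities were background corrected (normexp, offset 50) and put on the log2 scale in limma 3.58.1 under R 4.3.3. Detection p-values, which the design called for first, could not be assigned, so the filter intensity was set at 123.7 (the 60th percentile of the whole table), and the 21828 probes above it on 2 or more of 8 arrays were kept. By the platform annotation 30113 probes had 1 symbol, 8 had several and 17202 had none. Of those with 1 symbol, 30074 matched RefSeq by gene number. The probe with the highest mean stood for each of 12436 genes.

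A single limma fit (lmFit, eBayes) took in all 8 arrays with group means, 4 residual and 4.39 prior degrees of freedom, and a median residual SD of 0.139. NANOG minus OCT4 was tested two-sided with Benjamini-Hochberg adjustment over all 12436 genes at 0.05. Differences include the offset, which understates dim genes. Where both arrays of a group read a probe under the filter intensity, the fold is a bound, with each dim array taken at that intensity or its own value, whichever was higher. Such a bound is a fold of group means and does not include their sampling error. The procedure was tested on simulated independent normal values, with the same spread on all 8 arrays for a gene and no replicate effect. It therefore does not cover groups of unequal spread or correlated replicate deviations. Precision is limited by 2 arrays per group.

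Named genes are the 3 factors, the 15 largest passing differences in each direction without overlap between arrays, and at most 4 passing genes per list for 33 lists. A total of 8 passing genes with placeholder names were counted, not named. The lists hold 744 symbols, 46 of them matched to no probe, and 561 genes measured. The contrast, the members and the lists were chosen with earlier results of these data known. The correlation across genes of the replicate deviations was 0.02 between the NANOG and OCT4 groups, -0.01 between NANOG and control and 0.38 between OCT4 and control. No label ties same-numbered arrays to a shared culture or day, and the numbers were not taken as pairs. Alternatives changed the background correction, the filter, the normalization, the arrays in the fit, array weights, the variance model, the replicate block and the probe rule. Each array was also left out in turn.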

Additional observations from a re-analysis of the deposited data

How the results depend on the processing

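The count of 890 genes, 537 higher with the NANOG label and 353 with the OCT4 label, stayed within 1.5 times under most alternatives, and it was 783 (491 and 292) with a replicate block. A filter on all 8 arrays tested fewer genes and gave 590 (346 and 244). It rose to 2529 (1249 and 1280) with only the 4 NANOG and OCT4 arrays in the fit, to 2498 (1231 and 1267) with array weights and to 3115 (1504 and 1611) with the replicate block on those 4 arrays. Leaving out both SOX2 arrays, an alternative chosen after seeing the data, gave 1889 (973 and 916), as did leaving out either, since 1 array adds no spread. In these 4 fits all 890 genes kept their call, but the share higher with the NANOG label was 49.4%, 49.3%, 48.3% and 51.5%, against 60.3%. Cyclic loess gave 877 (587 and 290). Leaving out each array in turn gave 128 to 1889 genes in all, 99 to 973 and 29 to 916. A lone array was then assumed to vary like the other groups. Of 102 named genes that passed, 34 kept their call in every alternative that tested them. With an array left out 68 lost it, 18 did under another setting, and none turned. The filter on all 8 arrays tested 670 of the 890 passing genes, so not every alternative covered all 34. The difference of SOX2, which passed nowhere, turned to 0.16 without OCT4 replicate 2 (adjusted p = 0.896) and was -0.26 without OCT4 replicate 1. The cause of these changes was not tested. With 2 arrays per group, small differences and probes near the filter intensity are the least secure.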

Other observations

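Passing genes adjacent in RefSeq, among genes tested, formed 11 runs of at least 3 with the same direction, and all 11 were higher with the NANOG label. They were read after the values were seen and were not tested. The run on chromosome 10 held 4 genes, the aldo-keto reductases AKR1C2 (2.44), AKR1C3 (2.31) and AKR1C4 (1.75), which reduce steroids and other carbonyls, and NET1. The AKR1C genes are near-identical and their probes may share signal. CBR3, a carbonyl reductase on another chromosome, read 838 and 873 against 216 and 175 (2.42). A run on chromosome 12 held 5 genes, ITGA5, GTSF1, NCKAP1L, PDE1B and PPP1R1A, with differences from 0.58 to 1.51. The run of 6 on chromosome 17 joined the growth hormone and placental lactogen genes with CD79B. On chromosome 6 POU5F1 adjoined HLA-C and HLA-B among genes tested.

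Replicate deviations of the OCT4-labelled and control groups correlated at 0.38 across genes, which are not independent replicates, while those of the NANOG-labelled and control groups correlated at -0.01.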
